A study of Mus musculus with 6 samples.

Results

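The nuclear genes of oxidative phosphorylation were followed in atrioventricular canal (AVC) regions of mouse embryos with and without Scx. They were taken as the protein-coding Ensembl genes of the mm9 GENCODE annotation whose symbol begins with Ndufa, Ndufb, Ndufc, Ndufs, Ndufv, Uqcr, Cox4 to Cox8 or Atp5, with Sdha, Sdhb, Sdhc and Sdhd added. The annotation held 92 such genes, and the table of 18810 genes listed 90 of them under 89 symbols, since Ndufb8 had 2 overlapping entries. Cox7b2 and Cox8c, testis isoforms of complex IV subunits, were not listed. By complex, 37 entries belonged to complex I, 4 to complex II, 8 to complex III, 17 to complex IV and 15 to complex V. The remaining entries were Atp5l-ps1, a copy of Atp5l annotated as protein-coding, and 8 genes that the symbols take in but that encode no subunit.

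AVC regions with the mitral, tricuspid and aortic valves came from 3 Scx-/- and 3 Scx+/+ littermates of the C57BL/6 strain at embryonic day 15.5, with 1 library per embryo, no sorting of cells and a dissection meant to keep myocardium low. Scx encodes Scleraxis, a basic helix-loop-helix transcription factor of tendon and heart valve precursors. The libraries held 46429973 to 68571003 reads, recovered from the deposited RPKM, which scales reads by exon length and library depth, and the 10 most abundant genes took 56.9% of the summed RPKM in Scx+/+ 2 against 30.7% to 43.9% elsewhere. Scx, counted over the whole gene, had 33.6, 18.6 and 82.9 RPKM in Scx-/- 1, 2 and 3 and 29.5, 58.3 and 26.0 RPKM in Scx+/+ 1, 2 and 3, so this value does not check the genotype labels, and the libraries are named as labelled. The study measured the first exon of Scx separately to check the genotypes and reported a very large decrease in Scx-/- samples. That measurement was not analysed here. In bulk tissue, fewer cells of a type and less RNA per cell cannot be told apart.

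Oxidative phosphorylation passes electrons from NADH and succinate through complexes I to IV of the inner mitochondrial membrane to oxygen, and ATP synthase, complex V, uses the resulting proton gradient to make ATP. Most subunits are encoded in the nucleus and a few core ones in mitochondrial DNA, so both genomes have to be expressed together. The heart depends on this pathway, and cardiac and skeletal muscle replace some ubiquitous complex IV subunits with their own isoforms, Cox6a2, Cox7a1 and Cox8b. Nuclear respiratory factors NRF1 and GABPA, the estrogen-related receptors and YY1 are known activators of many of these genes.

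Promoter sequence was available for 70 of the 89 symbols in RefSeq, build GRCm38.p6, as 300 bases from 250 before to 50 after each gene start. Below are the 150 bases before the start of Cox8b and Cox8a, the isoform pair whose balance varied most among the libraries, and of Sdha and Sdhd, complex II genes with matches to the NRF1 motif. Capitals mark every match of the 8 motifs searched that lies in the stretch, on either strand.
Cox8b, chr7:140900447-140900596, minus strand: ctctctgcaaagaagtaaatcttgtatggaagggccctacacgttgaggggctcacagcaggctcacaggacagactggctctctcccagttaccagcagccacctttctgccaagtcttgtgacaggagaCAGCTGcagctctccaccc
Cox8a, chr19:7217617-7217766, minus strand: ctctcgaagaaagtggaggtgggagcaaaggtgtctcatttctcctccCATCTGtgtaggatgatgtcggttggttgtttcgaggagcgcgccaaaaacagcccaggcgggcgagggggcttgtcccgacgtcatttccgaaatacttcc
Sdha, chr13:74350241-74350390, minus strand: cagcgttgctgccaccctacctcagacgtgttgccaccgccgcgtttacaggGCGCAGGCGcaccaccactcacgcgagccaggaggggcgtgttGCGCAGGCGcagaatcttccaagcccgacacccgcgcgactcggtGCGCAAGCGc
Sdhd, chr9:50603850-50603999, minus strand: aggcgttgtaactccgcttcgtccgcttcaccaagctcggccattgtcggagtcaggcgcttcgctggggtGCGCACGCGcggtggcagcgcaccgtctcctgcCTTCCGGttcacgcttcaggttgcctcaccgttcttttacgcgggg

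Sdha held 3 NRF1 matches in this stretch, and Sdhd held 1 NRF1 match and 1 ETS match, read there on the opposite strand as CTTCCGG. The stretch of Cox8b held 1 E-box, CAGCTG, and that of Cox8a held 1 E-box of the form CATCTG. Across the 300-base windows, the NRF1 motif GCGCANGCG stood in 20 of 70 promoters (28.6%), against 6.47% of all 27025 promoters and 8.83% of the 17491 of protein-coding genes. The ETS motif CCGGAAG, bound by GABPA, stood in 16 of 70 (22.9%), against 9.12% of all promoters and 11.9% of those of protein-coding genes. The shares that follow are set against the same backgrounds, in that order. YY1 (AAGATGGCG) matched 6 promoters (8.57%, against 1.49% and 1.94%) and the estrogen-related receptor motif TCAAGGTCA matched 2 (2.86%, against 0.407% and 0.332%). By complex, NRF1 matches stood in 8 of 32 promoters of complex I, 2 of 3 of complex II, 2 of 5 of complex III, 1 of 12 of complex IV and 6 of 13 of complex V. The E-box CANNTG, which basic helix-loop-helix factors such as Scleraxis bind, stood in 70.0% of these promoters. It stood in 72.1% of all promoters and in 68.8% of those of protein-coding genes. CATCTG, which is contained in CANNTG, stood in 14.3% against 17.2% and 14.8%. CCAAT, bound by NFY, stood in 44.3% against 37.9% and 39.0%, and TATAAA, the TATA box, in 8.57% against 14.2% and 13.3%. These are matches of letters on both strands and no measure of binding.

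The genes were among the most abundant in the tissue. Their median level was 136 RPKM, against 4.08 RPKM for the 13541 protein-coding genes listed, and 73 of 90 lay in the top 10% of protein-coding genes, at 34.0 RPKM or more. The median exon length was 1240 nucleotides, against 3456 for protein-coding genes. In every library, 89 of 90 had at least 50 reads and 82 had at least 1000. The genes lay on 19 chromosomes, with 11 on chromosome 7 and 3 on the X chromosome (Ndufa1, Ndufb11 and Cox7b).

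**Figure D1:**
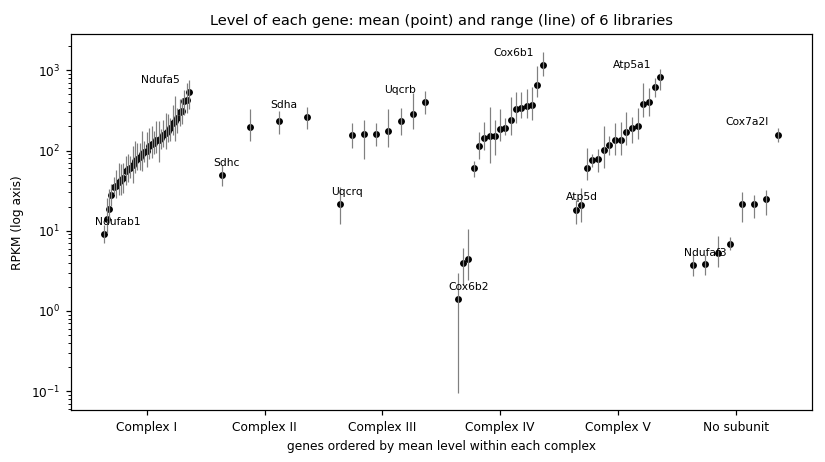
Level of each gene in RPKM on a log axis, grouped by complex, with the point at the mean of the 6 libraries and the line from the lowest to the highest library. Most genes sit above 34.0 RPKM, and the highest and lowest of each complex are named. Atp5l-ps1 is drawn with complex V.

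Levels within a complex differed by more than 10-fold in complexes I, III, IV and V. In complex I, the NADH dehydrogenase, Ndufa5, an accessory subunit of the peripheral arm, had the highest mean, 539 RPKM, and Ndufab1, the mitochondrial acyl carrier protein, the lowest, 9.06 RPKM. In complex III, the cytochrome bc1 complex, means ran from 21.3 RPKM for Uqcrq to 402 RPKM for Uqcrb, both small accessory subunits. In complex IV, cytochrome c oxidase, Cox6b1 had the highest mean of all the genes, 1154 RPKM, and Cox6b2, its testis isoform, the lowest, 1.42 RPKM. In complex V, means ran from 18.3 RPKM for Atp5d, the delta subunit of the F1 part, to 814 RPKM for Atp5a1, the alpha subunit of that part. These are levels per exon length over all annotated exons, so a gene with long annotated exons can rank low with many reads. Ndufab1, at 6883 nucleotides, had 3044 to 4693 reads in a library. Ndufa1, at 419 nucleotides and a mean of 82.6 RPKM, had 1421 to 2817. In addition, 16 of 90 genes had at least 1 other mm9 locus at 95% identity or more over at least 50% of the longest transcript. They were Atp5g2, Atp5h, Atp5k, Atp5l, Atp5l-ps1, Atp5o, Cox5b, Cox6c, Cox7a2l, Ndufb3, Ndufb11, Ndufs3, Ndufs5, Uqcr11, Uqcrb and Uqcrh, and their levels are uncertain, since reads may be split among copies. Exons of 20 genes overlapped another gene, on the opposite strand in 18, and whether counting used strand is not given in the sources used here.

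The first comparison was of Scx-/- with Scx+/+ regions, and it showed no nuclear oxidative phosphorylation gene past the threshold. By limma on log2(RPKM + 0.1), 0 of 90 genes were called at an unadjusted p below 0.05, against 3.89% of all 18810 genes, and 0 at an adjusted p below 0.05, as for all genes. One-way analysis of variance on RPKM or on its log2 also called 0 of 90. In 0 of 90 did the genotypes not overlap, against 9.5% of all genes. These p-values measure the spread between the embryos sampled. The log2 fold change, Scx-/- minus Scx+/+, was above 0 in 59 genes and below 0 in 31, that is 65.6% above 0 against 63.8% of all genes. Its median was 0.05, against 0.10 for all genes, and it ran from -0.26 for Atp5e to 0.58 for Cox6b2. Scaling changed that side: the median was -0.04 after quantile normalization, -0.06 with the median ratio of each library set to 0 and -0.08 with the dependence on exon length and GC content removed.

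The precision of each comparison was limited. The median standard error was 0.33 on the log2 scale, and the median 95% interval reached 0.75 to either side, a fold of 1.68. For 75 of 90 genes the whole interval lay between -1 and 1, so a difference of 2-fold or more lay outside it. Differences inside the intervals are not excluded with 3 libraries per genotype.

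**Figure D2:**
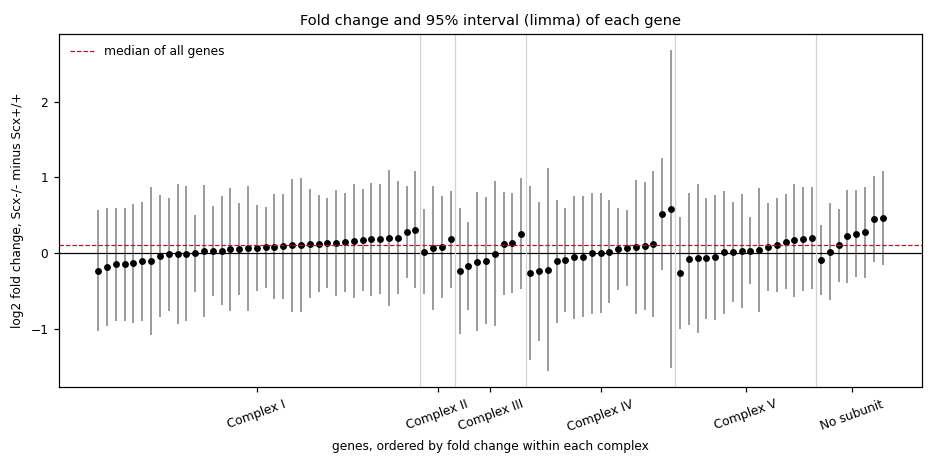
Log2 fold change, Scx-/- minus Scx+/+, of each of the 90 genes with its 95% interval from limma, ordered within each complex, and with Atp5l-ps1 in complex V. Every interval includes 0, and the dashed line is the median of all genes, 0.10.

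Complex I oxidizes NADH, and its 37 entries gave 25 fold changes above 0 and 12 below, with a median of 0.07. Ndufa5 was 546, 448 and 767 RPKM in Scx-/- 1, 2 and 3 and 404, 739 and 329.7 RPKM in Scx+/+ 1, 2 and 3. The highest library of each genotype stood apart from the others and the ranges overlapped, with a log2 fold change of 0.31 ± 0.34 (SE; limma, adjusted p = 0.967). Ndufa6, another accessory subunit, had the smallest p of the complex by limma, 0.331, at a log2 fold change of 0.28. The 2 entries of Ndufb8 share exons and are not independent, with log2 fold changes of -0.02 and -0.10.

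Complex II, succinate dehydrogenase, also belongs to the tricarboxylic acid (TCA) cycle and has no subunit encoded in mitochondrial DNA. Sdha, the flavoprotein that oxidizes succinate, was 282, 185 and 332 RPKM in Scx-/- 1, 2 and 3 and 223, 349 and 187 RPKM in Scx+/+ 1, 2 and 3. Scx-/- 3 and Scx+/+ 2 were the highest libraries, the genotypes overlapped, and the log2 fold change was 0.08 ± 0.30 (SE). Sdhb, the iron-sulphur subunit, was 196 ± 51.2 RPKM in Scx-/- and 200.4 ± 113 RPKM in Scx+/+ regions (SD, n = 3). Its log2 fold change was 0.07 ± 0.36, of the opposite sign to the difference of the RPKM means. Of the membrane anchors, Sdhc was 49.5 ± 9.20 and 49.9 ± 15.3 RPKM, and Sdhd was 247 ± 60.4 and 221 ± 74.7 RPKM, in Scx-/- and Scx+/+ regions (SD, n = 3). The smallest p of complex II by limma was 0.532, for Sdhd.

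Complex III hands electrons from ubiquinol to cytochrome c, and 3 of its 8 genes had a fold change above 0. Uqcrb was 415 ± 87.7 RPKM in Scx-/- and 389 ± 145 RPKM in Scx+/+ regions (SD, n = 3). Uqcrq, with the lowest level, was 20.3 ± 7.07 and 22.3 ± 11.2 RPKM. The fold changes of the complex ran from -0.24 for Uqcrc1 to 0.25 for Uqcrc2, the core proteins, and the smallest p by limma was 0.456, for Uqcrc2. Uqcrc1 was 183, 79.0 and 188 RPKM in Scx-/- 1, 2 and 3. In Scx+/+ 1, 2 and 3 it was 147, 238 and 127 RPKM, so Scx-/- 2 alone lay below the Scx+/+ range.

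Complex V turns the proton gradient into ATP, and 11 of its 15 genes had a fold change above 0, with a median of 0.03. Atp5a1 was 875, 676 and 1024 RPKM in Scx-/- 1, 2 and 3 and 708, 1039.8 and 561 RPKM in Scx+/+ 1, 2 and 3. The 2 highest libraries again came 1 from each genotype, and the log2 fold change was 0.18 ± 0.30 (SE). Atp5d was 18.5 ± 5.84 and 18.2 ± 5.32 RPKM in Scx-/- and Scx+/+ regions (SD, n = 3). Atp5e, the epsilon subunit of F1, had the lowest fold change of all 90 genes, at 52.3 ± 9.92 and 67.6 ± 35.2 RPKM in Scx-/- and Scx+/+ regions. Atp5l, a subunit of the membrane part, and its copy Atp5l-ps1 had log2 fold changes of -0.08 and -0.06, and reads cannot be told apart between copies this similar.

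Complex IV passes electrons to oxygen, and 9 of its 17 genes had a fold change above 0, with a median of 0.00. Cox6b1 was 1112, 839 and 1578 RPKM in Scx-/- 1, 2 and 3 and 839.7, 1715 and 843 RPKM in Scx+/+ 1, 2 and 3, with a log2 fold change of 0.09 ± 0.37 (SE). Its genotypes overlapped over nearly the whole range. Cox4i2, the lung isoform of subunit 4, had the smallest p of the complex by limma, 0.150, at 4.62 ± 1.24 RPKM in Scx-/- and 3.29 ± 1.26 RPKM in Scx+/+ regions (SD, n = 3). Cox6b2 had at most 98 reads in a library. In Scx+/+ 2 it was listed at the common fill-in value of 0.0949 RPKM, so its read count there is not known. Its log2 fold change of 0.58 ± 0.92 (SE) depends on that value and on the pseudocount.

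The 8 genes that encode no subunit included the smallest p-values of the set, and 7 of their fold changes were above 0. Ndufaf1, a complex I assembly factor (mm9 chr2:119481182-119488563, minus strand), had the smallest p by limma, 0.107. It was 23.1, 20.2 and 30.1 RPKM in Scx-/- 1, 2 and 3 and 18.1, 23.5 and 12.8 RPKM in Scx+/+ 1, 2 and 3. The genotypes overlapped, and its log2 fold change was 0.45 ± 0.25 (SE; limma, adjusted p = 0.967). The other complex I assembly factors gave log2 fold changes of 0.27 for Ndufaf2, 0.02 for Ndufaf3 and 0.26 for Ndufaf4. Cox7a2l, which takes part in supercomplex assembly, gave 0.10. Atp5s, a coupling factor, gave 0.46 ± 0.28 (SE), at 4.79, 5.14 and 8.63 RPKM in Scx-/- and 3.58, 4.42 and 5.02 RPKM in Scx+/+ regions, where Scx-/- 1 lay below Scx+/+ 3. Cox4nb, which is not a mitochondrial subunit in spite of its symbol, gave 0.22, and Atp5sl gave -0.09.

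The balance of isoforms was compared as the share of each in the summed RPKM of its pair, which does not depend on the scaling of a library. Cox6a2 (mm9 chr7:135348950-135349880), the heart and muscle isoform of subunit 6a, made up 67.1%, 65.9% and 77.8% of Cox6a2 plus Cox6a1 in Scx-/- 1, 2 and 3. In Scx+/+ 1, 2 and 3 it made up 67.8%, 77.5% and 63.1%. The genotype means of 70.2% ± 6.55 and 69.4% ± 7.33 (SD, n = 3) differed by 0.79 percentage points (exact permutation test, two-sided, p = 0.9). Cox6a2 overlaps Itgad on the opposite strand.

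Cox7a1 (mm9 chr7:30969190-30971047), the heart and muscle isoform of subunit 7a, made up 35.8%, 36.6% and 44.7% of Cox7a1 plus Cox7a2 in Scx-/- 1, 2 and 3. It made up 40.2%, 46.0% and 38.4% in Scx+/+ 1, 2 and 3 (difference of means -2.51 percentage points, exact permutation p = 0.5). Cox8b (mm9 chr7:148084842-148086345), the heart and muscle isoform of subunit 8, varied most, at 34.1%, 30.0% and 49.6% of Cox8b plus Cox8a in Scx-/- 1, 2 and 3. In Scx+/+ 1, 2 and 3 it made up 35.6%, 58.1% and 33.3% (difference of means -4.46 percentage points, exact permutation p = 0.6). All 3 muscle isoforms had their highest shares in Scx-/- 3 and Scx+/+ 2. The level of Cox8b was 98.1, 70.1 and 225 RPKM in Scx-/- and 88.4, 349 and 78.8 RPKM in Scx+/+ regions, while its partner Cox8a stayed between 158 and 252 RPKM.

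The other isoforms were minor by RPKM. Cox4i2 made up 0.275% to 0.930% of subunit 4 RPKM, Cox6b2 0.00554% to 0.352% of subunit 6b and Ndufa4l2 0.810% to 1.75% of Ndufa4l2 plus Ndufa4, and the genotypes overlapped in each. The lowest Cox6b2 share, in Scx+/+ 2, rests on the fill-in value. Atp5g1, Atp5g2 and Atp5g3 encode the same mature c subunit of the ATP synthase ring, at 20.9, 76.0 and 117 RPKM on average. Atp5g1 made up 8.83%, 8.39% and 11.0% of their sum in Scx-/- 1, 2 and 3 and 9.48%, 12.2% and 7.37% in Scx+/+ 1, 2 and 3. The annotated exons covered 4908 nucleotides in Atp5g1, 647 in Atp5g2 and 2181 in Atp5g3. Atp5g1 had 4272 to 7770 reads in a library, more than Atp5g2 at 2453 to 3207, so its low share depends on the exon length used. Exact permutation p-values of the 4 minor shares ran from 0.4 to 1.0, and 3 libraries against 3 cannot go below 0.1. Adjusted over the 7 shares, every p was 1.0.

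**Figure D3:**
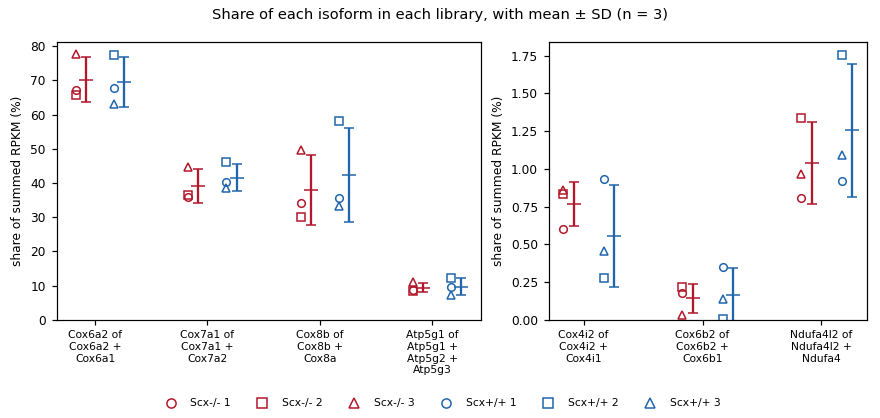
Share of each isoform in the summed RPKM of its pair or group, in percent, for each library, with the mean and SD of 3 libraries per genotype. The shares of Cox6a2, Cox7a1 and Cox8b are highest in Scx-/- 3 and Scx+/+ 2, and the genotypes overlap in all 7 shares.

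The genes instead differed between libraries in a shared order that crossed genotypes. Scx+/+ 2 was the highest library for 76 of 90 genes and Scx-/- 3 the second highest for 71. These 2 libraries were the highest 2 in 78 of 90 genes (86.7%), against 13.0% of the 13827 genes that averaged 1 RPKM or more. Scx-/- 1 came next for 73 genes, and Scx+/+ 3 was lowest for 48. The genotype accounted for a median of 1.54% of the sum of squares of a gene, against 12.8% for all genes, and for at most 37.7% (Atp5s). The highest library exceeded the lowest by a median of 2.27-fold, against 1.76-fold for all genes that averaged 1 RPKM or more, not matched in level. The fold ran from 1.42 for Atp5sl to 4.97 for Cox8b. Only Cox6b2 lay beyond that range, at 15.7-fold, in part through its fill-in value. These libraries and the order were read from the same values, and the genes are not independent replicates of a library. Xist, the RNA of the inactive X chromosome, was 21.7 RPKM in Scx-/- 2 and 12.7 RPKM in Scx+/+ 2. It was at the common fill-in value in the other libraries. The part of embryo sex in the order was not tested.

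**Figure D4:**
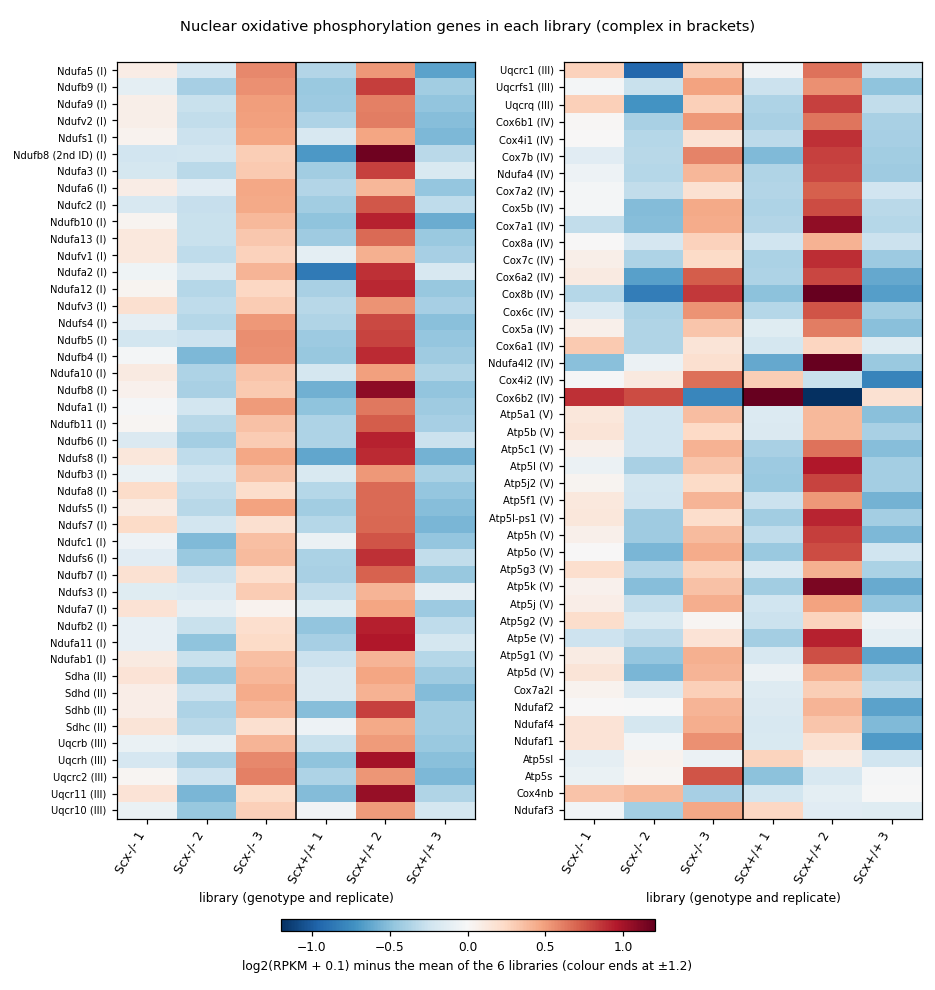
Entries drawn for 89 of the 90 genes in each library, as log2(RPKM + 0.1) minus its mean over the 6 libraries, ordered by complex and by mean level, with Atp5l-ps1 in complex V. Scx+/+ 2 and Scx-/- 3 are red in most rows of every complex, and Cox6b2 and Cox4nb are the clearest exceptions.

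In each complex, Scx+/+ 2 had the highest median and Scx-/- 3 the next, while the order of the lowest libraries differed. Over all 90 genes, the median of log2(RPKM + 0.1) relative to the mean of the libraries was 0.04, -0.30 and 0.37 in Scx-/- 1, 2 and 3 and -0.35, 0.68 and -0.42 in Scx+/+ 1, 2 and 3. Complex II gave 0.40 in Scx-/- 3 and 0.46 in Scx+/+ 2, and complex IV gave 0.40 and 0.78. The 8 genes that encode no subunit gave 0.42 and 0.15. Over all genes that averaged 1 RPKM or more, the medians lay between -0.13 and 0.15. With the dependence on exon length and GC content taken out of each library, the 90 genes still had medians of 0.35 in Scx-/- 3 and 0.60 in Scx+/+ 2 and of -0.31 to -0.13 elsewhere.

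The 12 genes that departed from the order included Atp5g2, Atp5s, Atp5sl, Cox4i2, Cox4nb, Cox6a1, Cox6b2, Ndufa7, Ndufa8, Ndufaf3 and Ndufs7. Cox6a1, the ubiquitous partner of Cox6a2, was 73.8, 46.2 and 66.1 RPKM in Scx-/- and 51.4, 70.8 and 53.5 RPKM in Scx+/+ regions. Cox4nb was lowest in Scx-/- 3, at 2.82 RPKM, and Cox6b2 was lowest in the libraries where most other genes were highest.

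One library decided whether any gene was called. Without Scx+/+ 2, limma called 11 of 90 genes at an unadjusted p below 0.05, all higher in Scx-/-, against 5.75% of all genes called higher in that fit, and 0 at an adjusted p below 0.05. They were Atp5c1, Atp5j2, Ndufa13, Ndufa5, Ndufa6, Ndufaf1, Ndufaf2, Ndufb10, Ndufb7, Ndufs7 and Ndufs8, and the median log2 fold change was 0.41. Scx+/+ 2 was the highest library for 76 of the 90 genes. Leaving it out lowered the Scx+/+ mean of such genes, and 87 fold changes were then above 0. These calls cannot be told apart from the effect of that choice. Without Scx-/- 3 and Scx+/+ 2 together, a choice made after seeing the data, 2 genes were called higher (Ndufa6 and Ndufb10), against 6.06% of all genes. Leaving out any other library called 0 of 90, with medians from -0.13 without Scx+/+ 3 to 0.23 without Scx-/- 2.

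Other mitochondrial genes were set beside these, and no list held a gene called at an unadjusted p below 0.05 by limma. The lists were 13 genes of mitochondrial DNA, 26 further assembly factors, 16 regulators of mitochondrial biogenesis, 12 electron carriers and transporters and 13 TCA cycle genes. Their median log2 fold changes were 0.02, 0.06, -0.01, 0.12 and 0.06. The smallest p of each list was 0.237 for mt-Nd6, a complex I subunit, 0.122 for Surf1, a complex IV assembly factor, 0.127 for Ppargc1b, a transcriptional coactivator, 0.344 for Ucp2, an uncoupling protein, and 0.0978 for Ogdh of the oxoglutarate dehydrogenase complex.

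The lists differed in how they followed the libraries. The genes of mitochondrial DNA had medians of 0.02, -0.48 and 0.48 in Scx-/- 1, 2 and 3 and 0.01, 0.10 and -0.12 in Scx+/+ 1, 2 and 3, so they were highest in Scx-/- 3. With the dependence on exon length and GC content taken out, their medians were 0.03, -0.51 and 0.12 in Scx-/- 1, 2 and 3. In Scx+/+ 1, 2 and 3 they were 0.10, 0.10 and 0.11. Their summed level was highest in Scx-/- 3 and Scx+/+ 2, at 101707 and 79364 RPKM, against 19792 and 24270 RPKM for the 90 nuclear genes. The TCA cycle genes had medians of 0.25 in Scx-/- 3 and 0.41 in Scx+/+ 2, and the carriers had 0.27 and 0.49. The regulators of biogenesis were at -0.13 and -0.12 in those libraries, but at -0.04 and 0.07 with the same dependence taken out. Ppargc1a, the coactivator PGC-1alpha, was 23.3, 20.0 and 20.0 RPKM in Scx-/- 1, 2 and 3 and 29.6, 15.2 and 28.5 RPKM in Scx+/+ 1, 2 and 3. It was lowest in the library where the nuclear genes were highest. Ppargc1a is 1 of 16 regulators and was chosen after its values were seen. These values are not corrected for exon length or GC content.

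Markers of cardiomyocytes moved with the genes across libraries. The 15 markers were listed under 16 entries, and their summed level was 30374, 24832 and 36653 RPKM in Scx-/- 1, 2 and 3 and 25290, 40419 and 22613 RPKM in Scx+/+ 1, 2 and 3. Myl2, the ventricular myosin light chain, was 5910 to 11634 RPKM, and 11 markers of valve mesenchyme and interstitial cells summed to 593 to 886 RPKM. Heart muscle transcripts were abundant in every library. The medians of the cardiomyocyte list were 0.27 in Scx-/- 3 and 0.30 in Scx+/+ 2, and those of the mesenchyme list were -0.30 and -0.13. With the dependence on exon length and GC content taken out, the cardiomyocyte medians in these libraries were 0.32 and 0.40. The mesenchyme medians were then -0.16 and -0.0042, and -0.16 in Scx-/- 1 as well. The part of cardiomyocyte content in the order of the libraries was not tested.

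By limma at an unadjusted p below 0.05, at which 3.89% of all genes were called, 1 of 16 cardiomyocyte entries was called, the calcium release channel Ryr2, lower in Scx-/- at -0.46 on the log2 scale. Lum, the proteoglycan lumican, was called among 11 mesenchyme markers, higher in Scx-/- by 0.85 on the log2 scale. Cd68 of 6 macrophage markers and Tcf21 of 4 epicardial markers were called higher. No marker of endothelium, smooth muscle or erythroid cells was called. Brown fat also uses the muscle isoforms, and of 4 adipocyte markers Ucp1 and Adipoq were not listed, while Cidea was 2.45 to 9.40 RPKM and highest in Scx+/+ 2. Fabp4, which endothelium also expresses, was 888 RPKM in Scx-/- 3 and 1152 RPKM in Scx+/+ 2, and 320.0 to 452 RPKM elsewhere. The median of these 2 adipocyte markers was 0.29 in Scx-/- 3 and 1.23 in Scx+/+ 2, and -0.44 to -0.25 elsewhere. The part of these cells was not tested.

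**Figure D5:**
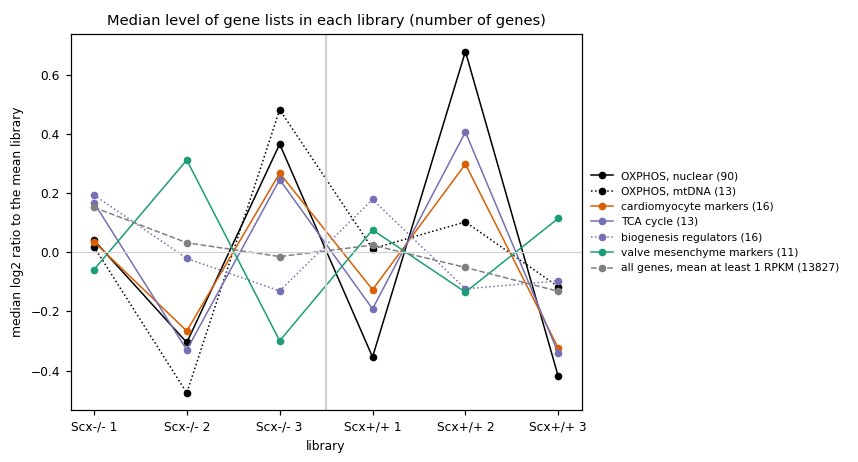
Median log2 ratio of each gene list to the mean library, for each library, with the number of genes in brackets. Lines join the points of one list and imply no order of libraries. The nuclear genes reach 0.37 in Scx-/- 3 and 0.68 in Scx+/+ 2, the cardiomyocyte markers 0.27 and 0.30, and the biogenesis regulators -0.13 and -0.12, none of them corrected for exon length or GC content.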

How the data were processed

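RNA was sequenced from 3 Scx-/- and 3 Scx+/+ AVC regions. The authors aligned reads to mm9 (TopHat 1.4.1, per the submitters' processing notes), counted them over Ensembl exons with easyRNASeq and deposited RPKM, with low values replaced by a common value. No column of these data held the authors' own comparisons. Whole reads were recovered for 98.5% to 98.6% of low values, within 0.1 read, and were used only to describe depth.

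Here, limma 3.58.1 in R 4.3.3 was fitted on log2(RPKM + 0.1) of all 18810 genes with an intensity trend and no covariate, with Benjamini-Hochberg adjustment. A fold change on this scale understates the change of low genes. Isoform shares were compared by exact permutation over libraries. Permutations ran in scipy 1.17.1 under Python 3.11.15, tables were handled with pandas 2.3.3 and numpy 2.4.6, figures were drawn in matplotlib 3.10.9, and BLAST 2.17.0 found copies in the mm9 genome. Exon lengths came from the GENCODE annotation, which held 18695 of the identifiers. The fit was tested on simulated data.

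Members, lists, motifs and markers were chosen with earlier results of these data known. Named are genes called or not overlapping, isoform pairs, the highest and lowest gene of each complex, complex II, genes that encode no subunit, the called or smallest-p gene of each list and its most abundant marker where a result turned on it. Others were chosen after their values were seen, and 1 gene is counted but not reported here. Alternatives were pseudocounts of 0.01 and 1, a minimum mean of 1 RPKM, no trend, one-way analysis of variance, 3 scalings, a replicate block and each library left out.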

Additional observations from a re-analysis of the deposited data

How the results depend on the processing

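Under every pseudocount, filter, trend and scaling tried, limma and analysis of variance called 0 of the 90 genes at the unadjusted threshold of 0.05. Leaving out 1 library gave 0 to 11 called genes and medians of -0.13 to 0.41, and leaving out Scx-/- 3 and Scx+/+ 2 together gave 2. The 5 other mitochondrial lists held 0 called genes, but 2 after quantile normalization, 1 with the median ratio set to 0, 1 with the length and GC trend removed, 0 to 4 with 1 library left out and 4 without both libraries. The same fits called 3.75%, 3.43%, 3.58%, 2.87% to 8.23% and 8.44% of all genes. Of all called genes, 72.6% were higher in Scx-/-, against 49.9%, 43.5% and 42.3% under those 3 scalings. Scaling also turned signs near 0: quantile normalization gave log2 fold changes of -0.027 for Sdha, -0.0063 for Sdhb, -0.10 for Sdhc and -0.0039 for Cox6b1. The median ratio set to 0 gave -0.025, -0.040, -0.093 and -0.016 for the same genes. Removing the trend gave -0.048 for Sdha, -0.029 for Sdhb, -0.13 for Sdhc, -0.0022 for Sdhd and -0.086 for Uqcrb. The cause of these changes was not tested.

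With 1 library left out, log2 fold changes ran from -0.21 to 0.55 for Cox6a2, -0.53 to 0.23 for Cox7a1, -0.70 to 0.47 for Cox8b, -0.11 to 0.34 for Sdha, -0.17 to 0.50 for Sdhb, -0.19 to 0.25 for Sdhc, -0.030 to 0.44 for Sdhd, -0.051 to 0.43 for Uqcrb, -0.14 to 0.44 for Cox6b1, -0.020 to 0.43 for Atp5a1, 0.22 to 0.66 for Ndufaf1, 0.067 to 0.65 for Ndufa5 and 0.24 to 0.79 for Cox4i2. Differences of shares ran from -2.97 to 4.80 percentage points for Cox6a2, -5.36 to -0.27 for Cox7a1, -10.3 to 3.42 for Cox8b, -0.10 to 0.070 for Cox6b2, -0.38 to 0.031 for Ndufa4l2 and -1.40 to 0.99 for Atp5g1.

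With the replicate number as a block, 0 of 90 genes were called, and 573 in all against 731. Same-numbered libraries deviated with correlations of 0.09, -0.22 and -0.19, and not every library correlated best with its own number, so the numbers were not taken as pairs. Depth gave 82 of 90 genes at least 1000 reads in every library.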
